A study of Mus musculus with 8 samples.

Results

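PDX1 peaks that lie on H2A.Z were compared with PDX1 peaks that do not, in Beta-TC6 cells, an insulin-secreting line from a mouse insulinoma that stands in for pancreatic beta cells. A PDX1 peak was counted as on H2A.Z when it shared at least 1 bp with an H2A.Z interval, and 1089 of the 34883 PDX1 peaks did so (3.12%), leaving 33794 off H2A.Z. From the other side, 1084 of the 26455 H2A.Z intervals held a PDX1 peak (4.10%). The 6 peak lists of the study hold 137716 peaks and intervals in all. Each PDX1 peak was also placed by its centre, either within 1 kb of an end of a protein-coding gene (a gene end, 742 peaks) or farther away (distal, 34141 peaks). This gave 97 gene-end peaks on H2A.Z, 645 gene-end peaks off it, 992 distal peaks on it and 33149 distal peaks off it. Gene-end peaks on H2A.Z nearest to the 1 kb limit lay 965, 949 and 941 bp from a gene end, and the nearest distal peaks on H2A.Z lay 1012, 1040 and 1042 bp away.

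PDX1 is a homeodomain transcription factor needed for pancreas formation and, in the adult, for insulin gene transcription and beta cell identity. It binds DNA through a core of TAAT, often inside enhancers. H2A.Z is a variant of histone H2A that remodelling complexes exchange into nucleosomes flanking transcription start sites and into many enhancers. H3K4me2 (dimethylation of histone H3 lysine 4) marks promoters and enhancers, H3K27ac (acetylation of lysine 27) marks those that are active, and BMAL1 and CLOCK are the paired activators of the circadian clock.

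All libraries came from untreated Beta-TC6 cells harvested at confluence and fixed with DSG, a protein crosslinker, followed by formaldehyde. There was 1 library for each of 6 targets and 2 pooled inputs, with no replicate, so every interval and p-value below covers counting error over peaks, which are not replicates of a condition. Libraries held 12892080 to 26678241 tags, with 19568242 for PDX1 and 18513695 for H2A.Z, and 4.32% of PDX1 tags and 3.12% of H2A.Z tags fell in the listed peaks. PDX1, H3K4me2 and H3K27ac were called against one input and H2A.Z, BMAL1 and CLOCK against the other. As a check of the cell type, H3K27ac lay at a gene end of 11 of 12 beta cell markers, Ucn3 being the exception, and of 2 of 6 alpha cell markers (Gcg and Ttr). It lay at 1 of 3 immune markers (Cd68) and at none of the delta, PP, acinar, duct, endothelial or fibroblast markers.

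The promoters below overlapped a PDX1 peak, with or without H2A.Z. Each is given as the 250 bases upstream of a start site, 5′ to 3′ on the gene's strand. The bases are from RefSeq (GRCm38.p6, which shares mm10 coordinates), with each TAAT or its complement ATTA in capitals. The promoters were chosen after their values were seen. In the first 3 a PDX1 peak on H2A.Z overlapped the window. Tmem260 encodes a transmembrane protein, Taf5 a subunit of the general transcription factor TFIID, and Ppm1k the mitochondrial phosphatase that activates branched-chain keto acid dehydrogenase.
Tmem260, chr14:48445873-48446122, plus strand: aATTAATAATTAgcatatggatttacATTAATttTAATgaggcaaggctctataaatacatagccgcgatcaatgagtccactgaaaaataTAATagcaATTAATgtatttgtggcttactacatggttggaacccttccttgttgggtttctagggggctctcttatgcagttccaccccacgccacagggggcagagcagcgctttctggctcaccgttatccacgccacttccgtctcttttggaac
Taf5, chr19:47067498-47067747, plus strand: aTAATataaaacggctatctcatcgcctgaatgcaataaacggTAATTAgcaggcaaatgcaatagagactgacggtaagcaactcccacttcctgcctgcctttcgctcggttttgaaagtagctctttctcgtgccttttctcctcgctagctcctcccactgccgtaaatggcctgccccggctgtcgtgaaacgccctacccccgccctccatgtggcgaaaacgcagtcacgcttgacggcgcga
Ppm1k, chr6:57535488-57535737, minus strand: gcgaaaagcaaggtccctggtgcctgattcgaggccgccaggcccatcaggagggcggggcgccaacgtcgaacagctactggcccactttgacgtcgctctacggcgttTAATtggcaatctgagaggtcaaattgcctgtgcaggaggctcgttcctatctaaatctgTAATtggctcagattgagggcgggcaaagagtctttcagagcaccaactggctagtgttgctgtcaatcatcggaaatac
In the next 3 the PDX1 peak had no H2A.Z interval. Iapp encodes amylin, which is stored and secreted with insulin, G6pc2 an islet glucose-6-phosphatase, and Rfx6 a transcription factor of the endocrine lineage.
Iapp, chr6:142298175-142298424, plus strand: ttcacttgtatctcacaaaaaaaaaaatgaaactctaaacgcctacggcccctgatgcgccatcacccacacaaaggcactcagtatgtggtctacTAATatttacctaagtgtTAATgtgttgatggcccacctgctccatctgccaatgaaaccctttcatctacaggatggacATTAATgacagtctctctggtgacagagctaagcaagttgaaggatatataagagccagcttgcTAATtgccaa
G6pc2, chr2:69219699-69219948, plus strand: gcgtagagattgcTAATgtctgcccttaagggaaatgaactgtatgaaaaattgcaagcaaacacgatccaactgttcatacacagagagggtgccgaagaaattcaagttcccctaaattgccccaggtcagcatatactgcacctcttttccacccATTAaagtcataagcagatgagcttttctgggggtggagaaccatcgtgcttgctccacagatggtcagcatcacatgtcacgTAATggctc
Rfx6, chr10:51685268-51685517, plus strand: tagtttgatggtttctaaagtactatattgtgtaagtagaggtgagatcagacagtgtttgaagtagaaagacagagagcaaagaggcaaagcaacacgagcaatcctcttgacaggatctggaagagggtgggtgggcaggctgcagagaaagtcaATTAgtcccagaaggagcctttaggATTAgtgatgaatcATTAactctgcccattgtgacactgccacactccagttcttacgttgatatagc
The window of Tmem260 held 10 matches, that of Taf5 3 and that of Ppm1k 2, against 5 for Iapp, 3 for G6pc2 and 3 for Rfx6, with overlapping matches each counted. The PDX1 peak covered 125 bp of the window at Tmem260, 87 at Taf5, 186 at Ppm1k, 227 at Iapp, 194 at G6pc2 and 105 at Rfx6. Matches were counted over the whole window, so not all of them lie under the peak. The PDX1 peak had a normalized tag count (tags per 10000000) of 24.5 at Tmem260, 14.3 at Taf5, 13.3 at Ppm1k, 46.0 at Iapp, 26.1 at G6pc2 and 29.6 at Rfx6. The H2A.Z interval had 28.6 at Tmem260, 26.5 at Taf5 and 52.4 at Ppm1k.

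Over all promoters, those with PDX1 on H2A.Z held TAAT about as often as PDX1 promoters off H2A.Z, and had a lower GC content than H2A.Z promoters without PDX1. Of the 21263 windows in the table, from 17492 genes, 28 overlapped a PDX1 peak on H2A.Z and 133 a PDX1 peak off it. TAAT on either strand was present in 22 of the 28 (78.6%, Wilson 95% interval 60.5 to 89.8) and in 104 of the 133 (78.2%, 70.4 to 84.4). It was present in 34.1% of the 3881 windows with H2A.Z and no PDX1, and in 49.4% of all windows. The longer palindrome TAATTA, which contains TAAT, was present in 6 of the 28 (21.4%, 10.2 to 39.5), in 36 of the 133 (27.1%, 20.2 to 35.2), in 1.91% of windows with H2A.Z alone and in 4.31% of all. Median GC content was 46.4% with PDX1 on H2A.Z, 50.8% with PDX1 off it, 62.0% with H2A.Z alone and 55.6% over all windows. CpG dinucleotides had medians of 8.5, 9, 17 and 10 in the same order. CACGTG, the E-box bound by CLOCK with BMAL1, was present in 3 of the 28 windows (10.7%, 3.71 to 27.2), in 6.77% of the 133 and in 6.63% of all. These are matches of letters within 250 bases and no test was made on them.

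H2A.Z lay under a larger share of the PDX1 peaks at gene ends than of the distal ones. Of 742 gene-end peaks 97 were on H2A.Z (13.1%, 10.8 to 15.7), and of 34141 distal peaks 992 (2.91%, 2.73 to 3.09), an odds ratio of 5.03 (4.02 to 6.28, adjusted two-sided Fisher exact p = 1.31e-32). Seen from H2A.Z the order was the opposite. Of 6219 H2A.Z intervals at gene ends 99 held PDX1 (1.59%, 1.31 to 1.93), and of 20236 distal intervals 985 did (4.87%, 4.58 to 5.17), an odds ratio of 0.316 (0.257 to 0.390, adjusted Fisher exact p = 5.43e-35, a test added after values were seen). PDX1 at a gene end was therefore more often on H2A.Z, while H2A.Z at a gene end was less often under PDX1. Among peaks with the same H3K4me2 and H3K27ac state, the gene-end odds ratio was 2.92 (2.32 to 3.68, Mantel-Haenszel over 4 strata). It was 2.90 (1.81 to 4.63) with H2A.Z intervals of at least 8 times the input and 8.19 (6.42 to 10.4) with the upper 50% of H2A.Z intervals by score. Either end of a gene counted as a gene end. A start site from the promoter set lay within 1 kb of 53 of the 97 gene-end peaks on H2A.Z (54.6%) and of 284 of the 645 off it (44.0%). The odds ratio was 1.53 (0.997 to 2.35, adjusted Fisher exact p = 0.0835, a test added after values were seen).

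H3K4me2 and H3K27ac were each found at more of the PDX1 peaks on H2A.Z than off it, at gene ends and among distal peaks. Of all PDX1 peaks 23.6% overlapped H3K4me2 and 21.1% H3K27ac. Among distal peaks, H3K4me2 lay at 597 of 992 on H2A.Z (60.2%) and at 21.9% of those off it, an odds ratio of 5.40 (4.75 to 6.15, adjusted Fisher exact p = 1.09e-142). At gene ends it lay at 87 of 97 (89.7%) and at 48.1%, an odds ratio of 9.40 (4.80 to 18.4, adjusted Fisher exact p = 1.40e-15). H3K27ac lay at 523 of the 992 distal peaks on H2A.Z (52.7%) and at 19.6% of those off it, an odds ratio of 4.58 (4.03 to 5.20, adjusted Fisher exact p = 6.35e-114). At gene ends it lay at 65 of 97 (67.0%) and at 44.3%, an odds ratio of 2.55 (1.62 to 4.0, adjusted Fisher exact p = 5.60e-05). Gene-end and distal odds ratios were not shown to differ for either mark, with an adjusted p of 0.188 for H3K4me2 and 0.0718 for H3K27ac (Woolf test of homogeneity). The gene-end H3K4me2 odds ratio ranged from 5.77 (3.93 to 8.48, H2A.Z within 1 kb) to 16.3 (2.17 to 123, H2A.Z of at least 8 times the input). That of H3K27ac ranged from 1.94 (0.756 to 4.99), no longer past the threshold with H2A.Z of at least 8 times the input, to 4.46 (2.43 to 8.16) with PDX1 of at least 8 times the input.

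**Figure D1:**
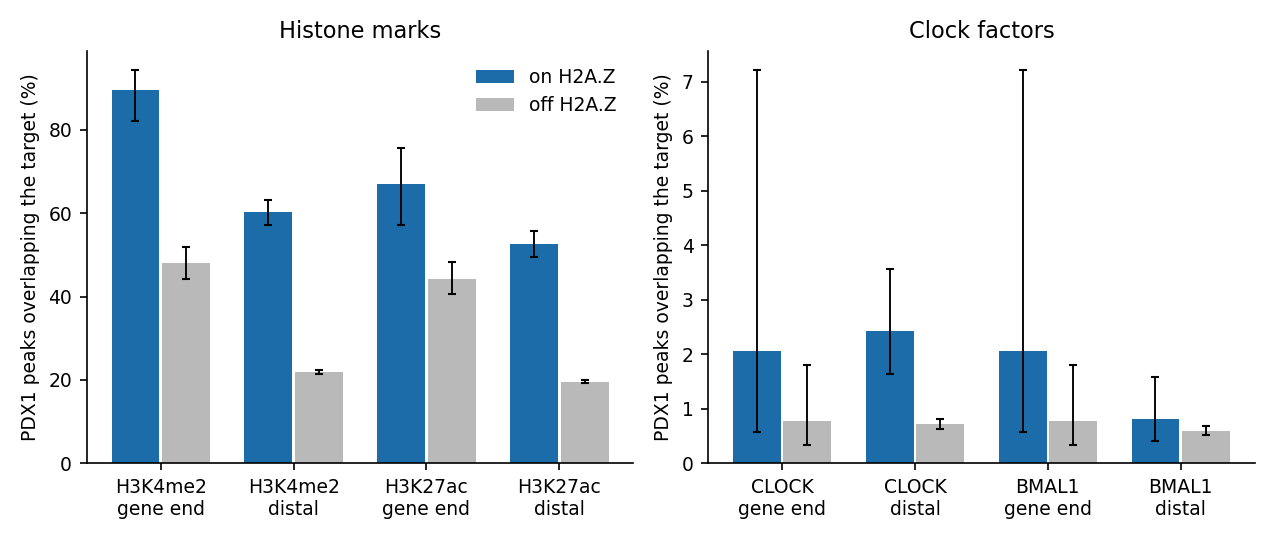
Percent of PDX1 peaks that overlap each other target, for peaks on and off H2A.Z, at gene ends and distal, with Wilson 95% intervals as error bars. H3K4me2 stands at 89.7% and 60.2% of peaks on H2A.Z against 48.1% and 21.9% off it, while BMAL1 and CLOCK are at 2.42% or less in every class.

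The marks overlap one another, so each was also compared at a fixed state of the other. With H3K27ac and position held fixed, the H3K4me2 odds ratio was 3.13 (2.68 to 3.65), and with H3K4me2 and position held fixed that of H3K27ac was 1.89 (1.64 to 2.18). Distal peaks on H2A.Z carried both marks in 42.8% of cases, H3K4me2 alone in 17.3%, H3K27ac alone in 9.88% and neither in 29.9%. Off H2A.Z these shares were 13.4%, 8.42%, 6.15% and 72.0%. Read the other way, H2A.Z lay under 8.71% (7.95 to 9.53) of distal PDX1 peaks with both marks, 5.81% (5.02 to 6.71) with H3K4me2 alone, 4.59% (3.78 to 5.56) with H3K27ac alone and 1.23% (1.1 to 1.38) with neither. At gene ends it lay under 21.2% with both marks, 23.6% with H3K4me2 alone, 9.09% with H3K27ac alone and 1.12% (3 of 268) with neither. The share in unmarked chromatin was thus 1.23% among distal peaks and 1.12% at gene ends, with intervals that overlap (1.1 to 1.38 and 0.381 to 3.24). The mark intervals themselves were denser at distal PDX1 peaks on H2A.Z: the H3K4me2 interval at a distal PDX1 peak had a median of 36.1 normalized tags per kb on H2A.Z and 26.5 off it, and the H3K27ac interval 55.4 and 47.6.

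The normalized tag count of PDX1 was higher on H2A.Z among distal peaks, but was not shown to be at gene ends. It was lower on H2A.Z among distal peaks with both marks. Fold over input went the other way among distal peaks, with a median of 9.37 on H2A.Z and 11.8 off it. Fold over the surroundings had medians of 7.71 and 7.90, and neither fold was tested. The median normalized tag count of distal peaks was 10.7 on H2A.Z (quartiles 8.18 and 15.3) and 9.20 off it (7.15 and 13.8), and at gene ends it was 8.69 (7.15 and 12.8) and 9.20 (7.15 and 12.8). Over all positions the ratio of medians was 1.16 (95% interval 1.11 to 1.22). Peaks of 15.3 or more, the upper 20.4% of all PDX1 peaks, made up 25.7% of distal peaks on H2A.Z and 20.3% of those off it, an odds ratio of 1.36 (1.17 to 1.57, adjusted Fisher exact p = 0.000109). At gene ends they made up 13.4% and 17.4%, an odds ratio of 0.737 (0.397 to 1.37, adjusted Fisher exact p = 0.412), which was not shown to differ from the distal value (Woolf test, adjusted p = 0.150). Among distal peaks with both marks, the median was 11.8 on H2A.Z and 13.3 off it, and peaks of 15.3 or more made up 29.9% and 41.5%, an odds ratio of 0.601 (0.484 to 0.746, adjusted Fisher exact p = 4.78e-06, a test added after values were seen). Combined over strata of position and marks the odds ratio was 0.769 (0.665 to 0.890), the opposite direction to the 1.31 (1.13 to 1.5) over strata of position alone. The strata did not all go this way. Among distal peaks the odds ratio was 0.741 (0.512 to 1.07) with H3K4me2 alone, 1.12 (0.743 to 1.68) with H3K27ac alone and 1.18 (0.862 to 1.61) with neither.

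The tag counts of the input moved with the same split. A PDX1 peak had a median of 2.00 input tags on H2A.Z and 1.00 off it, and the share of peaks on H2A.Z was 2.28% with 1 input tag or fewer, 3.72% with over 1 to 2 and 5.33% with over 2. Within strata of input tags and position, the odds ratio of a tag count of 15.3 or more was 0.973 (0.835 to 1.13), so the call ended there. Within the input strata H3K4me2 kept an odds ratio of 4.99 (4.39 to 5.67), H3K27ac 3.73 (3.28 to 4.24) and CLOCK 2.51 (1.66 to 3.81).

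**Figure D2:**
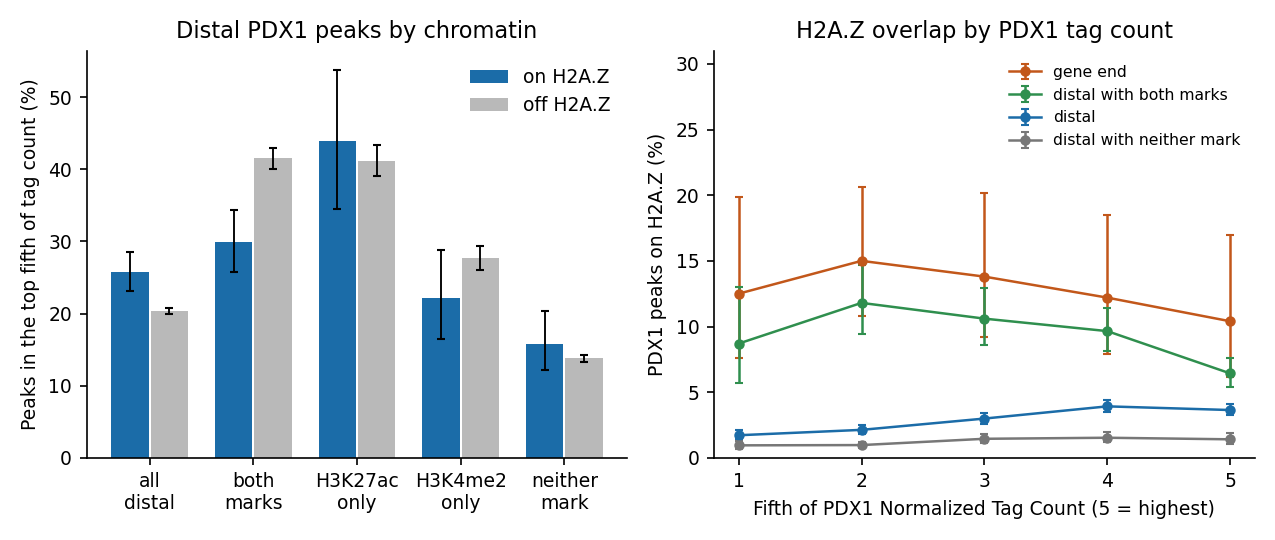
Percent of distal PDX1 peaks with a normalized tag count of 15.3 or more, on and off H2A.Z, by mark state (left), and percent of PDX1 peaks on H2A.Z in 5 classes of tag count (right), both with Wilson 95% intervals. With both marks 29.9% on H2A.Z stands against 41.5% off it. Distal shares go from 1.72% in the lowest class to 3.92% in the class of 10.7 to 14.8 and 3.64% in the highest, while gene-end shares lie between 10.4% and 15.0%.

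Of distal PDX1 peaks, H2A.Z lay under 1.72% (1.40 to 2.11) in the lowest of the 5 tag count classes, 2.13%, 2.99% and 3.92% (3.48 to 4.41) in the next 3, and 3.64% (3.23 to 4.11) in the highest. The share was thus higher in the upper classes, whose last 2 values overlap. At gene ends the 5 shares were 12.5%, 15.0%, 13.8%, 12.2% and 10.4%, with intervals that all overlap. With both marks, distal shares were 8.70%, 11.8%, 10.6%, 9.65% and 6.43% (5.43 to 7.60), the lowest of them in the highest class.

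The strongest PDX1 peaks in the list lay off H2A.Z, as did 33794 of all 34883 PDX1 peaks. In the highest of the 5 tag count classes 3.76% of peaks were on H2A.Z, against 3.12% of all PDX1 peaks. The highest on H2A.Z had a tag count of 81.3, 16269 bp from Zfp503, a zinc finger repressor, with H3K4me2, CLOCK and no H3K27ac. The highest off H2A.Z had 387, 8765 bp from Gm3415, and the next were near Bicc1 (269), Med13l (200), 1700123K08Rik (199) and Gm5565 (192). Of these 5, the Med13l peak, 297096 bp from that gene, had both marks and the other 4 had none. After Zfp503, the strongest distal peaks on H2A.Z were near Mki67 (55.7, although 487052 bp away), whose protein marks proliferating cells, Samsn1 (54.2), Kazald1 (53.1) and Kit (49.6), the receptor for stem cell factor. All 5 had H3K4me2, and those near Mki67 and Samsn1 had H3K27ac as well.

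At gene ends, the strongest peaks on H2A.Z were at Spocd1 (51.1), a factor of piRNA-guided DNA methylation, Fam135a (32.2), 4430402I18Rik (31.7), Tcim (27.1) and Gabarapl2 (26.1), an autophagy protein of the ATG8 family. Their H2A.Z intervals had tag counts of 14.6, 21.1, 8.10, 10.3 and 9.72, and all but Fam135a had H3K4me2. The strongest off H2A.Z were at Itga2 (78.7, with BMAL1), Mpdz (49.6), Gm4791 (46.5), Iapp (46.0) and Gm50595 (45.0). Among distal peaks on H2A.Z with both marks, those near Rfx3 (48.5, with CLOCK), a transcription factor of ciliated and endocrine cells, Nkx6-1 (47.0) and Ptprd (46.0) followed Mki67 and Samsn1. The strongest distal peaks on H2A.Z with neither mark were near Dgkb (47.5), Jkamp (43.4), Triqk (41.9), Gm11232 (37.8) and Jakmip1 (35.3), and their H2A.Z intervals were 501 or 631 bp wide with tag counts of 7.56 to 9.72. The minimum width of an H2A.Z interval was 501 bp, which 66.9% of all intervals had.

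CLOCK overlapped more of the PDX1 peaks on H2A.Z than off it, and BMAL1 was not shown to. CLOCK lay at 26 of 1089 peaks on H2A.Z (2.39%, 1.63 to 3.48) and at 241 of 33794 off it (0.713%), an odds ratio of 3.41 (2.26 to 5.13, adjusted Fisher exact p = 7.42e-07), against 0.765% of all PDX1 peaks. Of the 26, 24 were distal, where the odds ratio was 3.46 (2.26 to 5.29). At gene ends 2 of 97 and 5 of 645 peaks overlapped CLOCK (odds ratio 2.69, 0.515 to 14.1, adjusted Fisher exact p = 0.266). Within strata of position and both marks the odds ratio was 1.54 (1.02 to 2.34). With H2A.Z intervals of at least 8 times the input, 326 PDX1 peaks were on H2A.Z and 2 of them overlapped CLOCK, and the odds ratio over both positions turned from 3.39 (2.24 to 5.12) to 0.792 (0.196 to 3.19). BMAL1 lay at 10 of 1089 peaks (0.918%, 0.50 to 1.68) and at 202 of 33794 (0.598%), an odds ratio of 1.54 (0.814 to 2.92, adjusted Fisher exact p = 0.209), against 0.608% of all. With H2A.Z within 1 kb of the peak in place of overlap, the BMAL1 odds ratio was 2.19 (1.51 to 3.19).

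The CLOCK and BMAL1 sites are named here after their values were seen. PDX1, H2A.Z, BMAL1 and CLOCK met at 4 distal sites, nearest to Rwdd3 (PDX1 tag count 30.2, 363631 bp away), Trub1 (17.4), Tns3 (16.9) and Arhgap26 (8.69). All 4 had H3K27ac, and all but the Rwdd3 site had H3K4me2. After Zfp503 and Rfx3, the strongest PDX1 peaks with CLOCK on H2A.Z were near Pcx (38.3), which encodes pyruvate carboxylase and whose site lies inside the gene, and Magi2 (32.2). A further site lay 253074 bp from Noct (21.5), a rhythmically expressed phosphatase. The 2 gene-end sites with CLOCK were at Abcd3 (20.4), a peroxisomal transporter, and Pes1 (6.13), a ribosome assembly factor, and those with BMAL1 were at Trappc5 (7.67) and Stk11ip (7.15).

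PDX1 was denser in and near distal H2A.Z than in and near H2A.Z at gene ends. Distal H2A.Z intervals held 61.4 PDX1 centres per Mb, and the density was 58.1 within 200 bp of an interval, 46.3 at 200 to 500 bp, 32.2 at 500 to 1000 bp and 22.8 at 1000 to 2000 bp. It was 17.4 at 10000 to 20000 bp and 11 beyond. Around H2A.Z at gene ends the density was 14.5 inside the intervals, 17.3 within 200 bp, 15.2 at 200 to 500 bp and 18.2 at 500 to 1000 bp. It was lower at 2000 to 5000 bp (10.8), 5000 to 10000 bp (11.7) and 10000 to 20000 bp (11.9), and 13.4 beyond. Inside the intervals the distal density was therefore 61.4 per Mb against 14.5 per Mb at gene ends, from 729 and 71 centres.

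**Figure D3:**
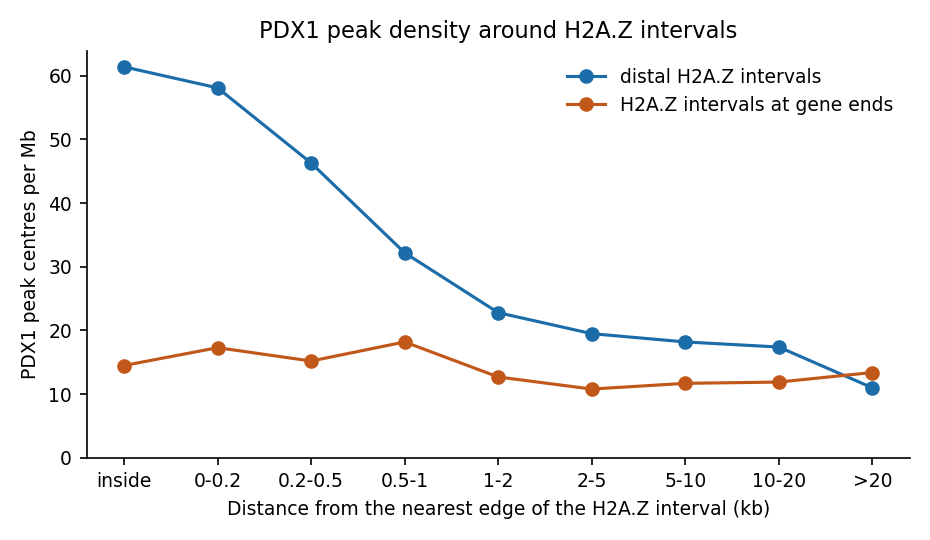
PDX1 peak centres per Mb by distance from the nearest H2A.Z interval, drawn separately for distal intervals and for those at gene ends. The distal line goes from 61.4 inside intervals to 11 beyond 20000 bp, while the gene-end line stays between 10.8 and 18.2.

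Distal PDX1 peaks beside H2A.Z had shares of H3K4me2, H3K27ac and CLOCK between those of peaks on it and the rest. Their shares of BMAL1 and of tag counts of 15.3 or more were above both. For CLOCK, BMAL1 and tag counts, their intervals overlapped those of peaks on H2A.Z, so an order between these classes was not shown. The 1584 distal peaks within 1 kb of an H2A.Z interval but not on it had H3K4me2 in 47.8%, H3K27ac in 44.8% and CLOCK in 1.64%, and the 31565 farther away had 20.6%, 18.3% and 0.665%. BMAL1 lay at 0.806% (0.409 to 1.58) of distal peaks on H2A.Z, 1.39% (0.919 to 2.09) within 1 kb and 0.554% farther away. Tag counts of 15.3 or more were found at 25.7%, 28.8% and 19.9%. Against the peaks within 1 kb, those on H2A.Z had more H3K4me2 (60.2%, odds ratio 1.65, 1.41 to 1.94, adjusted Fisher exact p = 3.55e-09) and more H3K27ac (52.7%, 1.37, 1.17 to 1.61, adjusted Fisher exact p = 0.000160). For CLOCK the odds ratio was 1.49 (0.848 to 2.60, adjusted Fisher exact p = 0.187), and for tag counts of 15.3 or more it was 0.856 (0.715 to 1.02, adjusted Fisher exact p = 0.107). These 4 tests were added after values were seen. Within a single H3K4me2 interval, PDX1 and H2A.Z often occurred without touching: 1409 H3K4me2 intervals held both, and in 672 of them (47.7%, 45.1 to 50.3) a PDX1 peak shared at least 1 bp with H2A.Z. This was so for 95 of 244 at gene ends (38.9%, 33.0 to 45.2) and for 577 of 1165 distal ones (49.5%, 46.7 to 52.4). Intervals with both were wide, with a median of 1504 bp for distal intervals against 936 bp with PDX1 alone and 1340 bp with H2A.Z alone.

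On the H2A.Z side, intervals with PDX1 carried more of the other marks than intervals without it. Of all H2A.Z intervals 41.0% overlapped H3K4me2, 29.1% H3K27ac, 1.35% BMAL1 and 1.01% CLOCK. Among distal intervals, H3K4me2 lay at 61.7% of those with PDX1 and 26.0% of those without (odds ratio 4.58, 4.02 to 5.23, adjusted Fisher exact p = 1.59e-114), and H3K27ac at 55.1% and 19.4% (5.09, 4.47 to 5.80, adjusted Fisher exact p = 1.69e-126). CLOCK lay at 28 of 985 (2.84%) and at 94 of 19251 (0.488%), an odds ratio of 5.96 (3.89 to 9.14, adjusted Fisher exact p = 1.18e-11). BMAL1 lay at 1.93% and 0.930% (2.10, 1.30 to 3.38, adjusted Fisher exact p = 0.00626). At gene ends, where most H2A.Z intervals had H3K4me2 with or without PDX1 (89.9% and 84.1%), H3K27ac alone of the 4 targets passed the test (70.7% and 54.5%, odds ratio 2.01, 1.30 to 3.11, adjusted Fisher exact p = 0.00226). Intervals with PDX1 were also wider at gene ends, with medians of 763 and 641 bp. Over strata of position and width the odds ratios were 3.82 (3.33 to 4.39) for H3K4me2, 4.16 (3.65 to 4.74) for H3K27ac, 3.69 (2.49 to 5.49) for CLOCK and 1.69 (1.09 to 2.60) for BMAL1. With H2A.Z of at least 8 times the input the CLOCK value was 2.73 (0.940 to 7.95) and the BMAL1 value 1.71 (0.679 to 4.29), neither past the threshold.

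By mark state, PDX1 lay in 14.9% (13.7 to 16.2) of distal H2A.Z intervals with both marks, 7.47% with H3K27ac alone, 6.15% with H3K4me2 alone and 2.11% (1.88 to 2.37) with neither. The 13332 unmarked distal intervals were 50.4% of all H2A.Z intervals. At gene ends the same states gave 2.11% (1.65 to 2.69), 1.67%, 1.16% and 0.534% (0.182 to 1.56).

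**Figure D4:**
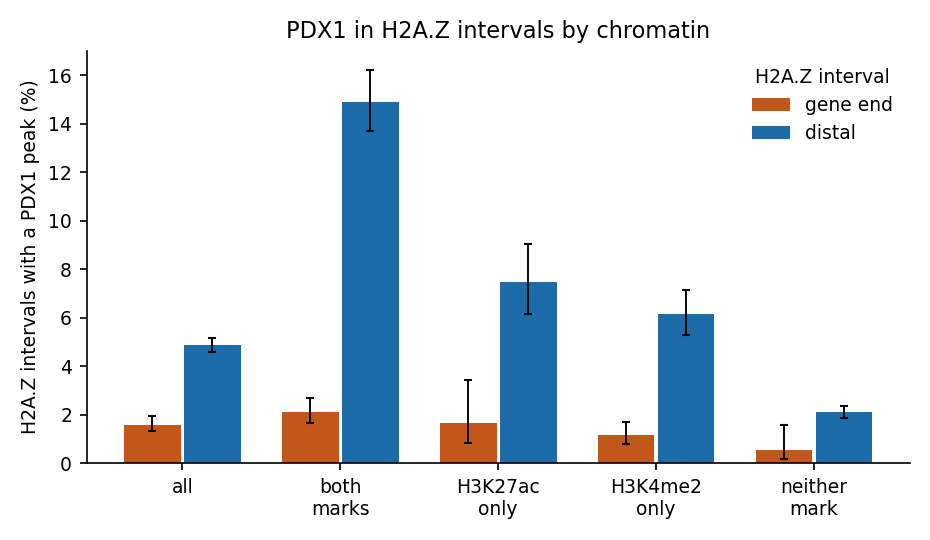
Percent of H2A.Z intervals that hold a PDX1 peak by H3K4me2 and H3K27ac state, for gene-end and distal intervals, with Wilson 95% intervals. Distal intervals with both marks reach 14.9% and those with neither 2.11%, the value that gene-end intervals with both marks also have.

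The H2A.Z intervals of highest tag count that held PDX1 were at the gene ends of Pdp1 (H2A.Z tag count 68.1), a phosphatase that activates pyruvate dehydrogenase, Slc37a1 (63.7), Tpm4 (62.1), a tropomyosin, Ppm1k (52.4) and Tesk2 (51.9). Their PDX1 peaks had tag counts of 7.67, 8.18, 7.15, 13.3 and 11.8. Distal ones were nearest to Tshz3 (58.9), a zinc finger homeobox factor, Pcdh9 (55.6), Pmfbp1 (52.9), Pan3 (51.9, with CLOCK) and Cyp7b1 (49.2), an oxysterol hydroxylase, and all 5 had both marks. No H2A.Z interval held more than 2 PDX1 peaks. The 5 that held 2 were nearest to 4930591A17Rik, Podxl, Tmcc3, Nmbr and Galc, at distances of 86609 to 1462177 bp, and all 5 had H3K4me2. The highest pair was near Nmbr, with PDX1 tag counts of 23.5 and 19.9.

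Distal PDX1 peaks on H2A.Z lay inside protein-coding genes less often than those off it (36.9% and 45.0%, odds ratio 0.714, 0.627 to 0.814, adjusted Fisher exact p = 7.42e-07). Over all positions, fewer of the peaks on H2A.Z were over 50 kb from any gene end (50.2% and 58.4%, odds ratio 0.718, 0.636 to 0.810, adjusted Fisher exact p = 2.38e-07, a test added after values were seen). Gene-end peaks, which cannot be that far away, were 97 of the 1089 on H2A.Z and 645 of the 33794 off it. Part of this difference is therefore built in. Among distal peaks the median distance was 64052 bp on H2A.Z and 78619 bp off it, which was not tested. By chromosome, the share of PDX1 peaks on H2A.Z ran from 0.787% on X (6 of 762), 1.15% on 9 and 1.28% on 2 to 4.23% on 4 and 4.50% on 19. The density of H2A.Z intervals ran from 2.15 per Mb on X to 16.9 per Mb on 4, and 9 and 2 had 4.05 and 5.04. The chromosomes with the lowest shares thus also had the fewest H2A.Z intervals per Mb, and within chromosomes the odds ratios were 5.87 (5.16 to 6.68) for H3K4me2 and 4.69 (4.14 to 5.32) for H3K27ac.

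Within 50 kb of a gene end, 542 of the 1089 PDX1 peaks on H2A.Z could be given a nearest protein-coding gene, and these made up 520 genes (2.38% of 21887). A PDX1 peak of any kind was nearest to 7319 genes (33.4%). Of the 520 genes, 498 had 1 PDX1 peak on H2A.Z and 22 had 2, and 328 (63.1%) also had a PDX1 peak off H2A.Z. H2A.Z lay at an end of 257 of the 520 (49.4%), of 36.8% of the genes with PDX1 and of 27.5% of all genes. The 520 include genes of the 97 gene-end PDX1 peaks on H2A.Z, which have H2A.Z at or near an end by construction. The first share is therefore raised by how these genes were chosen. The number of genes with PDX1 on H2A.Z ran from 151 with H2A.Z of at least 8 times the input to 1226 with H2A.Z within 1 kb of the peak.

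Among 30 transcription factors of the beta cell, 24 had a PDX1 peak, where 33.4% of all genes had one. Of the 30, 2 had a PDX1 peak on H2A.Z, Nkx6-1 and Pdx1 itself (6.67%, against 2.38% of all genes). These 2 were 8.33% of the 24, close to the 7.10% of all genes with PDX1. Nkx6-1 encodes a homeodomain factor that maintains beta cell identity, and its peak on H2A.Z had a tag count of 47.0 and lay 13758 bp from the gene with both marks. The Pdx1 peak on H2A.Z had 36.3 and lay 5756 bp from a gene end, outside the gene, also with both marks and with 12.0 input tags, 4.27 times the input. Pdx1 had 3 more PDX1 peaks and Nkx6-1 1 more, none of them on H2A.Z. Of 26 genes of the insulin granule and hormone processing, 19 had PDX1 (73.1%, against 33.4% of all genes). Of the 19, 3 had it on H2A.Z (15.8%, against 7.10% of all genes with PDX1). At Ins2, an insulin gene, the only PDX1 peak (12.3) lay 140 bp from a gene end, wholly inside an H2A.Z interval of 1098 bp with a tag count of 18.4, under both marks. At Chga (13.3) and Scg2 (14.3), which encode granins, the peak lay 22337 and 33748 bp away with H3K27ac and no H3K4me2.

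Of 40 vesicle exocytosis genes 22 had PDX1 (55.0%, against 33.4% of all genes), 20 had H2A.Z at a gene end (50.0%, against 27.5%) and 3 had PDX1 on H2A.Z (7.5%, against 2.38%). These were Cplx2 (17.9), a complexin that clamps fusion, Rph3al (8.69), a Rab effector, and Syt1 (7.15), a calcium sensor of fusion, all with both marks. Syt1 had 9 further PDX1 peaks off H2A.Z. Doc2b (9.20), another calcium sensor of exocytosis that is not among the 40, also had a PDX1 peak on H2A.Z, 5145 bp away under both marks. Of 26 developmental transcription factors from outside the endocrine pancreas 11 had PDX1 (42.3%, against 33.4% of all genes). Otx2 (9.20), Pax2 (7.15) and Six2 (21.0) had it on H2A.Z (11.5% of the 26, against 2.38% of all genes), all 3 with H3K4me2 and Pax2 with H3K27ac too. Genes of the exocytosis and developmental lists, and those named beside a list they are not on, were named after their values were seen.

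Core clock genes had H2A.Z at a gene end in 14 of 24 cases (58.3%, against 27.5% of all genes). They had PDX1 in 9 (37.5%, against 33.4% of all genes), but no PDX1 peak on H2A.Z. Likewise no PDX1 peak on H2A.Z was nearest to any of 15 other islet cell genes (11 with PDX1), 20 genes normally silent in beta cells (12 with PDX1), 28 oxidative phosphorylation subunits (6), 35 cytosolic ribosomal protein genes (2) or 14 genes of H2A.Z and its chaperones (6). The ribosomal protein genes had H2A.Z at a gene end in 13 cases (37.1%, against 27.5% of all genes). The lists do not hold every gene of their kind: PDX1 peaks on H2A.Z were nearest to Rps21 (7.15, 819 bp from a gene end) and Rpl26 (6.13, 7140 bp), ribosomal protein genes outside the 35, and to Atp5mpl (10.7, 24312 bp), an ATP synthase subunit gene outside the 28. Lists this short, set against the 2.38% of all genes with PDX1 on H2A.Z, leave a count of 0 uninformative for any one of them, and no list was tested.

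**Figure D5:**
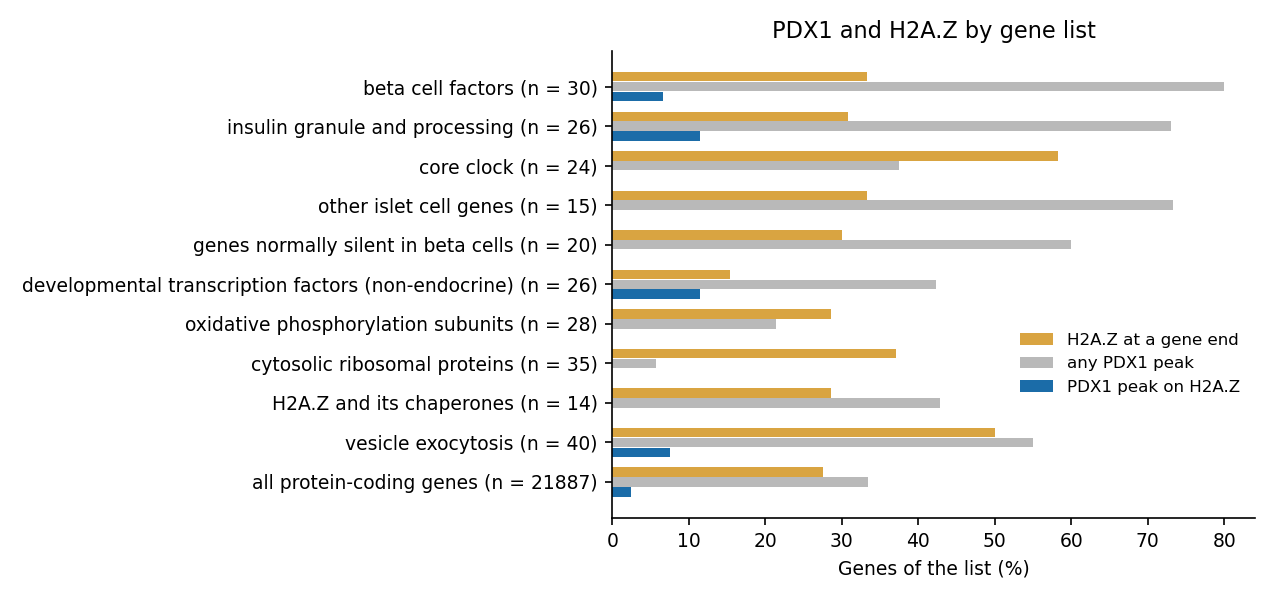
Percent of the genes of each list, and of all 21887 protein-coding genes, with H2A.Z at a gene end, with any PDX1 peak within 50 kb and with a PDX1 peak on H2A.Z. Insulin granule genes stand at 73.1% for any PDX1 peak and 11.5% for a PDX1 peak on H2A.Z, and all genes at 33.4% and 2.38%.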

How the data were processed

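Each of 6 targets had 1 ChIP-seq library. Bowtie 1.1.1, HOMER and the mm10 build are named in the submitters' processing notes, and HOMER called each library's peaks by itself, per the file headers. PDX1 peaks needed 13 tags, H2A.Z intervals 14, and both 4 times the input, and PDX1 peaks also 4 times the surroundings, per the file headers. The description of the H2A.Z sample names the input of PDX1, while its file header and the input's title name the input of BMAL1 and CLOCK, and the header was used. The deposited normalized tag count is a signal that HOMER brings to a common 10000000 tags, per the file headers. Deposited input tags are a signal at the scale of the peak's own list. The deposited score ranked peaks within a list for the upper 50%. A stricter list kept peaks with a deposited fold over input (a ratio) of 8 or more. The deposited focus ratio, a fraction, and the deposited p-value of each peak entered no test.

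An overlap needed 1 shared bp. Gene ends were both ends of 21887 protein-coding genes in a RefSeq table for GRCm38.p6, which gives no exons, so exon, intron and UTR positions are not given. A site under these thresholds enters no list, so a missing peak was not detectable at this depth. Fisher exact tests (two-sided) compared shares, with Woolf intervals for odds ratios and p-values adjusted by Benjamini-Hochberg over 29 tests, 5 homogeneity tests and 8 added tests as separate families. Mantel-Haenszel odds ratios had Robins-Breslow-Greenland intervals, and shares Wilson 95% intervals. Tag counts were tested only as the share of peaks of 15.3 or more, and the ratio of medians has an interval and no test. Overlap code was tested on 3000 simulated peaks. Python 3.11.15, NumPy 2.4.6, pandas 2.3.3 and SciPy 1.17.1 were used.

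The peaks compared and all 10 gene lists (258 genes, all matched) were chosen with earlier results of these data known. Named genes were those nearest to the 5 highest tag counts in each class of peak and of H2A.Z interval with PDX1, the 5 H2A.Z intervals with most PDX1 peaks, and genes of the beta cell, granule, clock and other islet lists with PDX1 on H2A.Z. Strata of input tags and of chromosome, and mark strata other than those for tag counts, were added after the data were seen.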

Additional observations from a re-analysis of the deposited data

How the results depend on the processing

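Of 221 values of 21 results under other settings, 187 were counted as unchanged. For an odds ratio this meant keeping both its direction and its side of the threshold. Counts and the ratio of medians were judged by size. The odds ratios of H3K4me2 (4.12 to 8.27) and H3K27ac (3.29 to 5.19) at PDX1 peaks over both positions were unchanged in every setting run. So was that of gene ends against distal (2.90 to 8.19). With H2A.Z of at least 8 times the input, CLOCK at PDX1 peaks turned to 0.792 (0.196 to 3.19) over both positions, 0.853 (0.211 to 3.45) distal and 0.400 (0.0985 to 1.63) within marks. BMAL1 turned to 0.491 (0.0686 to 3.51). These rest on 2 CLOCK and 1 BMAL1 overlaps, and every interval includes 1, so a reversal was not shown. In that setting, H3K27ac at gene ends (1.94), PDX1 of 15.3 or more tags within marks (0.869), and BMAL1 (1.71) and CLOCK (2.73) at H2A.Z intervals missed the threshold, and 326 PDX1 peaks and 151 genes were left. With PDX1 of at least 8 times the input, BMAL1 at PDX1 peaks turned to 0.867 (0.276 to 2.73), CLOCK within marks (1.28) and BMAL1 at H2A.Z intervals (1.35) missed the threshold, and 640 peaks and 286 genes were left. With the upper 50% of PDX1 peaks, the odds ratio of a high tag count turned to 0.911 (0.750 to 1.11) and the ratio of medians to 1.00. The cut for a high tag count was taken anew from this shorter list, so it was not 15.3 there. This list left 698 peaks and 330 genes. The score follows the tag count, so the list was chosen on the value compared. With the upper 50% of H2A.Z, CLOCK within marks (1.30) and BMAL1 at H2A.Z intervals (1.46) missed the threshold, with 608 peaks and 340 genes. With H2A.Z within 1 kb, BMAL1 at PDX1 peaks passed it (2.19), CLOCK (1.31) and 15.3 or more tags (0.928) within marks missed it, and 2787 peaks and 1226 genes were counted. With the PDX1 centre inside H2A.Z, 15.3 or more tags (1.16) and BMAL1 at H2A.Z intervals (1.40) missed it. CLOCK within marks missed it with gene ends at 500 bp (1.5) and on autosomes only (1.52). Ends of all genes gave 836 genes. Strata of input tags, added after the data were seen, turned the odds ratio of 15.3 or more tags to 0.973 (0.835 to 1.13). Stricter lists hold fewer peaks by construction, and beyond that the cause was not tested. No paired analysis was possible because each target has 1 library, so no library could be left out either.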
